A study of Mus musculus with 2 samples.

Results

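The genes of matrix metalloproteinases (MMPs) and of their tissue inhibitors (TIMPs) were followed in cementoblast-like cells with and without compressive force. The set was chosen by gene symbol and holds 10 of the 44792 rows of the deposited count table, 7 MMP genes (Mmp2, Mmp3, Mmp9, Mmp10, Mmp13, Mmp14 and Mmp19) and 3 TIMP genes (Timp1, Timp2 and Timp3). All 10 had a row, and 8 of them reached 1 CPM (counts scaled to a library of 1000000) in at least one library. The cells were OCCM-30, an immortalized wild-type mouse line labelled as cementoblast-like, with cementum, the mineralized layer on the tooth root, given as the tissue. One group was exposed to compressive force and the other was its control; both received DMEM, a standard culture medium, with fetal bovine serum (10%) and antibiotics. How strong and how long the force was is not stated in the sources used here, each group has 1 library, and all cells were of this one line in culture.

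MMPs are zinc-dependent proteases that cut collagens and other matrix proteins outside the cell. They are made as inactive proenzymes whose propeptide covers the active site until another protease removes it, and TIMPs block the active enzymes by binding to the catalytic site. In tooth-supporting tissues, MMPs and TIMPs are known for their part in the turnover of collagen when teeth are moved.

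The total counts were 24296292 under force and 25049919 in the control, and the 10 genes held 0.128% and 0.132% of them. Of the labelled cell type's markers, Runx2, Sp7, Alpl, Spp1, Col1a1 and Phex were present at 1 CPM or more, Bglap had 12 counts against 11 and Ibsp had 0 in both libraries. Ratios below are of the compressed over the control library, on scaled counts with a prior count of 0.5, and each comes with an exact 95% conditional binomial interval. These intervals cover counting error only. With 1 library per group no ratio has a replicate check, so the values set one library against the other, not one condition against the other, and a change in the share of some cells cannot be told apart from a change in RNA per cell.

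Before the values, the 250 bases upstream of 3 annotated starts on chromosome 9 are shown, because these genes lie in a single MMP gene cluster, where Mmp13 passed the minimum of 1 CPM and Mmp3 and Mmp10 did not. They were chosen after their counts were seen. The sequences are from RefSeq on GRCm38.p6 and read 5′ to 3′ on the plus strand, with capitals at matches to an AP-1 site (TGAGTCA, or TGACTCA on the other strand), a RUNX site (ACCACA, or TGTGGT) and a TATA box (TATAAA, gene strand only).
Mmp13, chr9:7272264-7272513, collagenase: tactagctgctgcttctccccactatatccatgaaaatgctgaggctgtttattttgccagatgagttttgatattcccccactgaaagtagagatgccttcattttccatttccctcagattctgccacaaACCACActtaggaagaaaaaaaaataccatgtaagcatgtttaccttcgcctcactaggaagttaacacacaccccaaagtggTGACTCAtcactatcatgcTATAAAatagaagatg
Mmp3, chr9:7445572-7445821, stromelysin: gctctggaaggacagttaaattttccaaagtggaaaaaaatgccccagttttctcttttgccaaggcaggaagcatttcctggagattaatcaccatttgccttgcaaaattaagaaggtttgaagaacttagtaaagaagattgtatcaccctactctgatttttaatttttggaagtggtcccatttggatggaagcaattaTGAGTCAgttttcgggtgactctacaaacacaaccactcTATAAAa
Mmp10, chr9:7502092-7502341, stromelysin: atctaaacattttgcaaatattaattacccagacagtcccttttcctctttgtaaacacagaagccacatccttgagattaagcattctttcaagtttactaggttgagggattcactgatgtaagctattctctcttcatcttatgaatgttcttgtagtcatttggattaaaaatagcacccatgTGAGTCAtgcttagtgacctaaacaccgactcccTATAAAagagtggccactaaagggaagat
All 3 windows held an AP-1 match and a TATA box match. The AP-1 match lay 35 to 29 bases before the annotated start in Mmp13, 46 to 40 bases before it in Mmp3 and 63 to 57 bases before it in Mmp10. The RUNX match of Mmp13, 118 to 113 bases before the start, had no counterpart in the windows of Mmp3 and Mmp10. Among the 32851 promoter windows of the same length in the RefSeq table, 4.46% held the AP-1 letters on either strand, 14.0% the RUNX letters and 7.59% the TATA letters. No match overlapped another. A match is a description of letters and not of a bound site.

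The ratios of the 8 members above the minimum lay between 0.70 for Mmp9 and 1.40 for Mmp13. A gene was called when it had at least 1 CPM in either library, a ratio 2-fold or more from 1 in either direction, and an interval that left out 1. By that rule 0 of these 8 members were called, against 3.99% of all 14001 genes above it (3.06% higher and 0.929% lower). With the limit at 1.5-fold it was again 0 of 8, against 11% of all genes (7.31% higher and 3.71% lower). The median log2 ratio of the 8 members was 0.02, beside -0.01 over all genes, and 4 had ratios above 1 and 4 below. Intervals that excluded 1 were found for 4 of the 8 members, 2 on each side. Over all genes the share was 54.9% (26.3% above 1 and 28.6% below), close to that of the members. It depended on level, at 31.8% for genes with a mean CPM below 5 and 72.0% for those of at least 50.

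**Figure D1:**
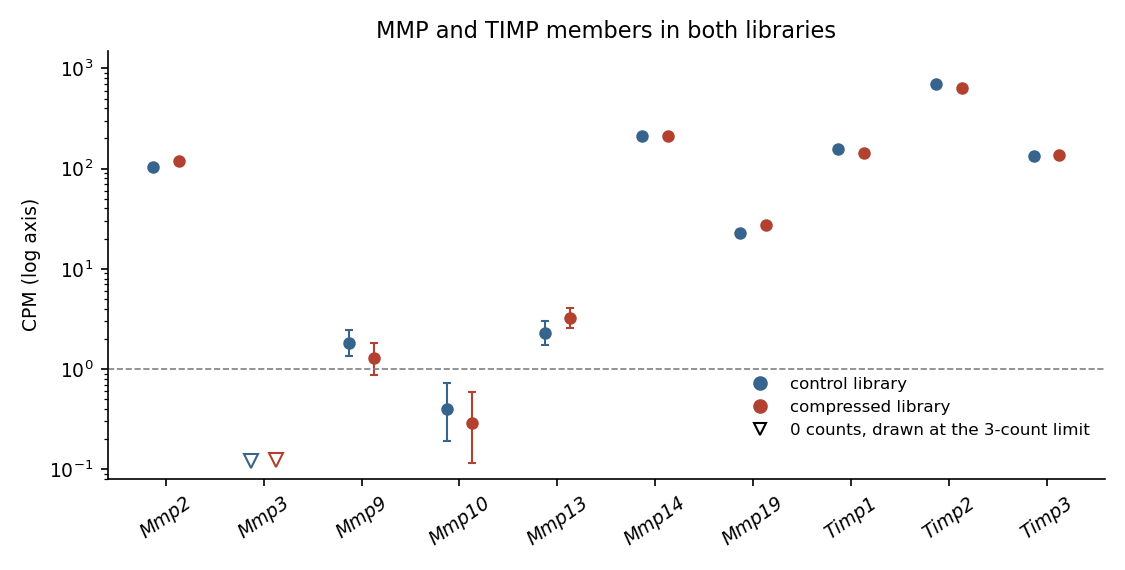
Level of each member in CPM (log axis) in the control and the compressed library, with exact 95% Poisson intervals for counting error. The points of each gene differ by less than 2-fold, as for Timp2 at 635 and 691 CPM and Mmp10 at 0.288 and 0.399 CPM; Mmp3 had 0 counts in both libraries and is drawn at the limit that 3 counts give. The dashed line marks the minimum of 1 CPM, and levels are not corrected for gene length, so they are not to be compared between genes.

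The collagenase Mmp13, which cuts native fibrillar collagen and is known from bone and cartilage, had 79 counts under force and 58 in the control. These were 3.25 CPM (95% Poisson interval 2.58 to 4.05) and 2.31 CPM (1.76 to 2.99). The compressed library stood higher, at a ratio of 1.40, but the interval (0.989 to 2.01) reached from just under no change to 2-fold, and a difference was not detectable at this depth. Its gene, on chromosome 9 at 7272514 to 7283333, opens the MMP cluster.

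The 2 stromelysins, broad-acting MMPs that also activate other proenzymes, were at or near the limit of detection. Mmp3 had 0 counts in both libraries, and the limit that 3 counts give was 0.124 CPM under force and 0.12 CPM in the control. Mmp10 had 7 counts under force and 10 in the control, 0.288 and 0.399 CPM, both below the minimum. Its ratio of 0.74 had an interval from 0.233 to 2.10, so even a 2-fold difference in either direction was not detectable at this depth. Mmp3 and Mmp10 are related in sequence, and how the counting treated reads that fit both is not stated in the sources used here.

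The rest of the cluster had no counts. RefSeq places 10 MMP genes between 7272514 and 7699585 on chromosome 9 (GRCm38), in the order Mmp13, Mmp12, Mmp1b, Mmp3, Mmp1a, Mmp10, Mmp8, Mmp27, Mmp20 and Mmp7. Of these, 8 had 0 counts in both libraries, and Mmp13 alone passed 1 CPM. The 8 include Mmp3, the interstitial collagenases Mmp1a and Mmp1b, the neutrophil collagenase Mmp8, the macrophage elastase Mmp12, the enamel protease Mmp20 and the epithelial matrilysin Mmp7. Windows upstream of the starts of 7 of the 10 genes held the AP-1 letters, with those of Mmp3, Mmp1a, Mmp1b, Mmp12 and Mmp7 among them, so genes with and without counts shared this match.

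**Figure D2:**
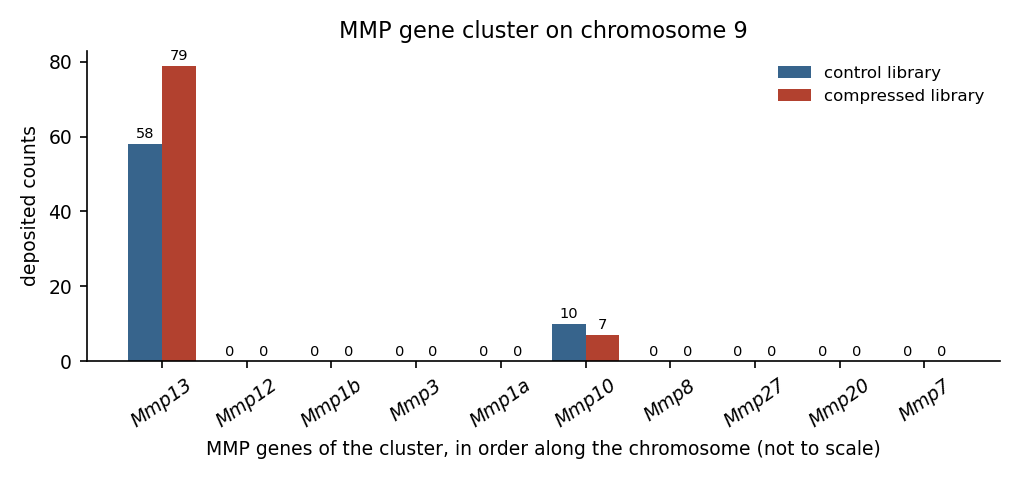
Deposited counts (linear axis from 0) of the 10 MMP genes of the chromosome 9 cluster in both libraries, in their order along the chromosome and with each count printed above its bar. Mmp13 had 58 counts in the control and 79 in the compressed library, Mmp10 had 10 and 7, and the other 8 genes had 0.

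The gelatinases, which digest denatured collagen and basement membrane collagen, stood on opposite sides of no change. Mmp2, on chromosome 8 at 92827290 to 92853421, had 2864 counts under force and 2604 in the control, 118 CPM (114 to 122) and 104 CPM (99.95 to 108). The compressed library was higher, with a ratio of 1.13 and an interval of 1.08 to 1.20. Of all genes above the minimum, 54.4% lay farther from no change than Mmp2. That pool includes genes of few counts, whose ratios spread more widely. Among genes with a mean CPM of at least 50, the 75th percentile of the ratio was 1.08, below that of Mmp2.

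Mmp9, on chromosome 2 at 164940326 to 164955850, had 31 counts under force and 46 in the control. Its level was 1.28 CPM (0.867 to 1.81) under force and 1.84 CPM (1.34 to 2.45) in the control. The ratio of 0.70 was the lowest of the members, but its interval (0.426 to 1.12) included 1. Counts of Mmp2 over Mmp9, a quotient chosen like those below after the counts were seen, were 92.4 under force and 56.6 in the control. That quotient was 1.63 times higher in the compressed library, with an interval of 1.01 to 2.67 that rested on the few counts of Mmp9.

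Neutrophils, macrophages and osteoclasts are known sources of Mmp9, and most of their markers had few or no counts. The 5 neutrophil markers summed to 0 counts under force and 3 in the control, with Elane, Mpo and S100a9 at 0 in both. Of 6 macrophage markers, Ptprc and Adgre1 (listed under its older symbol Emr1) had 0 counts in both libraries, Lyz2 had 2 and 4, and Cd14, Cd68 and Csf1r were above 1 CPM. The 6 summed to 17.8 CPM under force and 18.6 CPM in the control. Of 5 osteoclast markers, Calcr, Ocstamp and Dcstamp were at 0 in both and Acp5 had 1 count against 0, while Ctsk had 50 counts against 62. Osteoclast markers summed to 2.10 and 2.47 CPM. Sums were also alike for 4 endothelial markers (4.32 and 4.15 CPM) and 6 epithelial markers (1.94 and 1.84 CPM). The same held for 6 periodontal ligament and fibroblast markers (228 and 236 CPM). Within the sums single markers differed, with Pecam1 at 21 counts against 32 and Vwf at 84 against 70. Cdh1 had 8 counts against 2 and Krt14 had 12 against 21. S100a4 made up most of the ligament and fibroblast sum, at 187 and 197 CPM. The part of such cells in the values of Mmp9 was not tested.

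Mmp14, the membrane-anchored collagenase that activates the proenzyme of Mmp2 at the cell surface, was level between the libraries. It had 5158 counts under force and 5335 in the control, at 212 CPM (207 to 218) and 213 CPM (207 to 219). The ratio was 0.998, and its interval of 0.960 to 1.04 left room for a difference of only a few percent from counting error. In all, 99.1% of genes above the minimum lay farther from no change. The gene is on chromosome 14 at 54431598 to 54442456.

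Mmp19, a secreted MMP that acts on basement membrane proteins, had 665 counts under force and 568 in the control. Its level was 27.4 CPM (25.3 to 29.5) under force and 22.7 CPM (20.8 to 24.6) in the control. The compressed library was higher at a ratio of 1.21 (interval 1.08 to 1.35), the largest ratio among the members whose interval excluded 1. On chromosome 10 at 128790910 to 128800827, its span overlaps that of Tmem198b, which had 448 counts against 416 and a ratio of 1.11 (0.970 to 1.27). Whether the counting used strand is not stated in the sources used here, so reads of the shared part cannot be assigned to either gene with certainty.

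Timp2, the inhibitor that also bridges Mmp14 and the proenzyme of Mmp2, had 15418 counts under force and 17329 in the control. Its level was 635 CPM (625 to 645) and 691 CPM (681 to 702). The compressed library was lower, at a ratio of 0.918 (interval 0.898 to 0.938). A difference of this size was small beside the table as a whole, since 67.6% of genes lay farther from no change.

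Timp1, a secreted inhibitor that also binds the proenzyme of Mmp9, had 3491 counts under force and 3895 in the control, 144 CPM (139 to 149) and 155 CPM (151 to 160). It was lower in the compressed library by nearly the same factor as Timp2, at a ratio of 0.925 (interval 0.883 to 0.968). Timp2 over Timp1 was 4.42 under force and 4.45 in the control.

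Timp3, the inhibitor that stays bound to the matrix and also blocks several ADAM and ADAMTS proteases, had 3346 counts under force and 3332 in the control. Its level was 138 CPM (133 to 143) and 133 CPM (128 to 138), a ratio of 1.04 (interval 0.987 to 1.09). Relative to Timp3, the other inhibitors were lower in the compressed library. Timp2 over Timp3 was 4.61 in the compressed against 5.20 in the control library, a quotient of 0.886 with an interval of 0.840 to 0.934. Timp1 over Timp3 was 1.04 against 1.17, a quotient of 0.893 with an interval of 0.835 to 0.954.

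Some TIMP genes sit inside synapsin genes, which had few counts here. Timp1 (chromosome X, 20870166 to 20874737) lies within Syn1, which had 94 counts against 76. Timp3 (chromosome 10, 86300412 to 86349505) lies within Syn3, which had 1 count against 6. Timp2 is on chromosome 11 at 118301061 to 118355411 and overlaps Cep295nl, which is not analysed here, nor is Gm45472, which overlaps the end of Mmp2. The fourth inhibitor gene, Timp4, had 3 counts in each library.

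**Figure D3:**
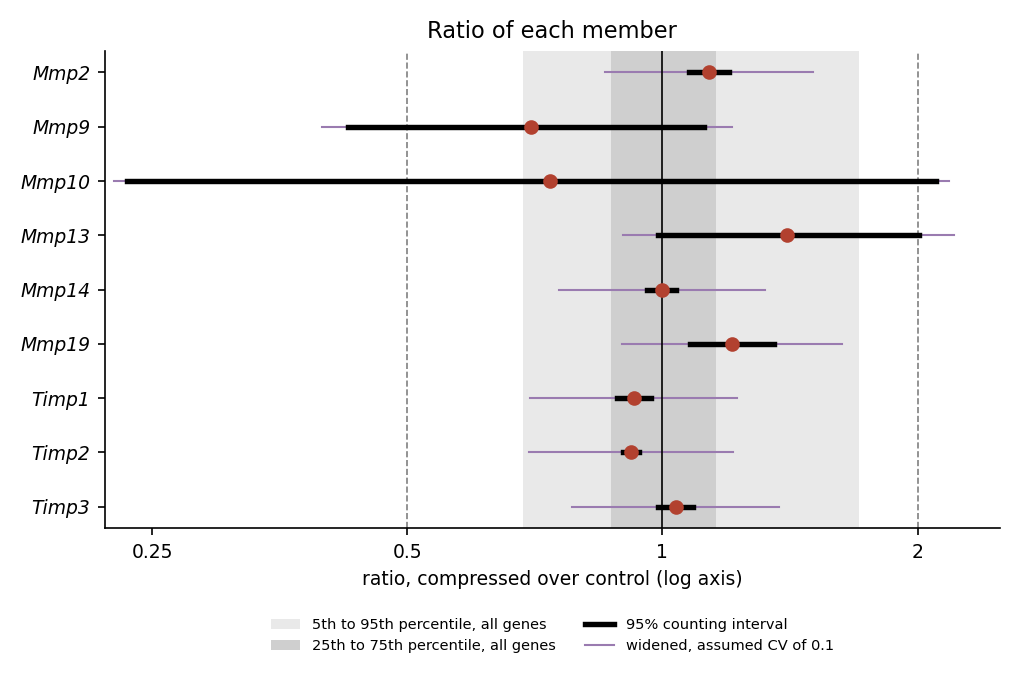
Ratio of the compressed over the control library (log axis) for the 9 members with counts, with 95% counting intervals (black) and intervals widened for an assumed coefficient of variation (CV) of 0.1 between cultures (purple). All 9 points lie between the dashed 2-fold lines; black bars of Mmp2, Mmp19, Timp1 and Timp2 exclude 1, and no purple bar does. Shading gives the ranges of all genes above the minimum, from 0.870 to 1.16 between the 25th and 75th percentiles and from 0.684 to 1.71 between the 5th and 95th.

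Promoter windows are shown also for Mmp14 and Timp3, for contrast with the clustered genes. These members had the narrowest intervals among those that included 1 under the main scaling. Under the loess alternative, the interval of Timp3 excluded 1. Capitals here mark a GC box (GGGCGG, or CCGCCC on the other strand), a RUNX site and a HIF core (ACGTG, or CACGT).
Mmp14, chr14:54431348-54431597, plus strand: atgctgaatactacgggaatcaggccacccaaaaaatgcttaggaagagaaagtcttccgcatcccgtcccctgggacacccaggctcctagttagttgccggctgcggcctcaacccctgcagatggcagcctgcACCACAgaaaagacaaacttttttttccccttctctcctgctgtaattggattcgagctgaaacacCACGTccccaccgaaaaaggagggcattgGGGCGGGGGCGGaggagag
Timp3, chr10:86300162-86300411, plus strand: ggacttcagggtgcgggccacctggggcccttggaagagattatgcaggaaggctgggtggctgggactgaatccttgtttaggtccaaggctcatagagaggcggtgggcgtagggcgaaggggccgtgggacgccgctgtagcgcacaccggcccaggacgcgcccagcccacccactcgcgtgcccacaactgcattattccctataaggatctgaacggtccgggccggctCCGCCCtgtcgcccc
Neither window held the AP-1 or the TATA letters. Mmp14 had 2 adjoining GC box matches within 19 to 8 bases of the annotated start, a RUNX match and a HIF core match, and Timp3 had 1 GC box match 15 to 10 bases before it. GC box letters stood in 32.7% of all promoter windows and HIF core letters in 16.6%. The windows of Mmp14 and Timp3 were 55.2% and 65.6% G or C, against 40.4%, 37.6% and 37.2% for Mmp13, Mmp3 and Mmp10 and a median of 52.4% over all windows. None of the 10 genes of the chromosome 9 cluster held the GC box letters, while Mmp14, Timp1, Timp2 and Timp3 did, 4 of the 7 members found in the promoter table. Mmp2, Mmp9 and Mmp19 had no window there.

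Summed over the set, protease counts were slightly higher and inhibitor counts slightly lower in the compressed library. The 7 MMP members summed to 363 CPM under force and 344 CPM in the control, and the 3 TIMP members to 916 and 980 CPM. MMP counts over TIMP counts, a quotient that no scaling by a single factor per library affects, was 0.396 under force and 0.351 in the control. It was 1.13 times higher in the compressed library, with an interval of 1.09 to 1.17 for counting error. Neither this interval nor that of any other quotient given here was widened for differences between cultures. The quotients were not recomputed under the loess scaling, which shifts genes by their level. Without Mmp14, the MMP with most counts, the factor was 1.22, and without Timp2 it was 1.08.

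The complex of Mmp14, Timp2 and Mmp2, chosen after the counts were seen, had both proteases higher relative to the inhibitor in the compressed library. Mmp2 over Timp2 was 0.186 under force and 0.150 in the control, a quotient of 1.24 with an interval of 1.17 to 1.31. Mmp14 over Timp2 was 0.335 against 0.308, a quotient of 1.09 with an interval of 1.04 to 1.14. Both quotients share Timp2, which was lower in the compressed library at a ratio of 0.918. Mmp14 itself was level at 0.998, so its quotient mainly restates the difference in Timp2. Mmp9 over its partner Timp1 went the other way, at 0.00888 against 0.0118, but the interval of that quotient, 0.460 to 1.21, included 1.

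How much cultures of one condition differ was not measured here. Intervals were also widened for an assumed coefficient of variation of 0.1 between cultures, an alternative added after the data were seen. With these, 0 of the 8 members had an interval that excluded 1, against 15.3% of all genes. At 0.2 the intervals are wider still, so 0 of 8 was bound to hold there, against 4.26% of all genes. At 0.1, Mmp2 had an interval of 0.856 to 1.51, Mmp19 of 0.895 to 1.63 and Timp2 of 0.695 to 1.21. Widened intervals were computed for single genes only, so whether those of the quotients would exclude 1 was not tested.

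**Figure D4:**
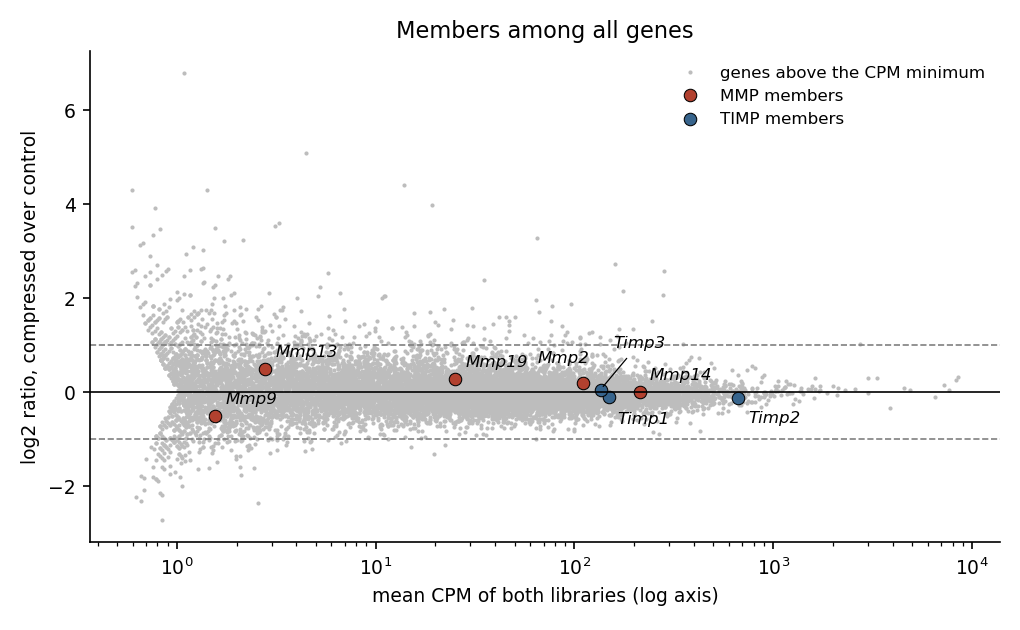
Log2 ratio of the compressed over the control library against mean CPM (log axis) for the 14001 genes above the minimum (grey), with the 5 MMP and 3 TIMP members above it marked. Dashed lines mark 2-fold; all 8 members lie between them, with Mmp9 and Mmp13 farthest from 0 among genes of few counts and Mmp14 on the line of no change.

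Outside the set, 16 further MMP genes and Timp4 had rows, and 4 of these passed the minimum. None was called at either limit, against 3.99% of all genes at 2-fold and 11% at 1.5-fold. Mmp11, a stromelysin-like MMP activated by furin, had 715 counts against 545 and a ratio of 1.35 (interval 1.21 to 1.52). Mmp23 had 630 counts against 609 and a ratio of 1.07, Mmp28 had 341 against 372 and 0.946, and the membrane-type Mmp16 had 118 against 137 and 0.889, and all these intervals included 1. The membrane-type Mmp15 had 4 counts against 16 and a ratio of 0.28 (interval 0.0628 to 0.800). It stayed below 1 CPM in both libraries and only for that reason was not called lower at 2-fold. Mmp17 had 5 counts against 10, Mmp24 had 2 in each library, and Mmp21 and Mmp25 had at most 1. In all, 12 of the 27 MMP and TIMP genes passed the minimum, 8 had 0 counts in both libraries, and the median log2 ratio of the 12 was 0.02.

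Proteins that switch MMPs on were represented by 9 genes, of which 7 passed the minimum. At either limit 0 were called, against 3.99% of all genes at 2-fold and 11% at 1.5-fold. Basigin (Bsg), a surface glycoprotein known as an inducer of MMPs, had the highest ratio at 1.37 (1.33 to 1.41), with 9880 counts against 7444. Tissue plasminogen activator (Plat) followed at 1.22 (1.14 to 1.32), and the lowest were the proprotein convertase Pcsk7 at 0.822 (0.748 to 0.903) and the urokinase gene Plau at 0.898 (0.808 to 0.996). Furin, the convertase that cleaves the propeptide of Mmp14, stood at 1.08, a value given although it was not among the extremes. Plg, which encodes plasminogen, and Pcsk5 had 0 counts. The list's median log2 ratio was -0.08.

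Of 7 genes of other inhibitors and clearance receptors, 4 had 0 counts in both libraries. The other 3 passed the minimum, all with counting intervals above 1, as 26.3% of all genes above it had. At 2-fold 0 were called and at 1.5-fold 1, where 3.06% and 7.31% of all genes were called higher. Reck, a membrane-anchored inhibitor of MMPs, had 537 counts against 348 and a ratio of 1.59 (1.39 to 1.83), and it was the gene called. Serpinb2 had a ratio of 1.42 (1.05 to 1.92), and the endocytic receptor Lrp1, which clears MMPs and their complexes, 1.13 (1.11 to 1.15). The median log2 ratio of the 3 was 0.50, which is the value of Serpinb2 itself, and that of all genes was -0.01. Serpinb2 encodes an inhibitor of plasminogen activators, not of MMPs, and Lrp1 is a clearance receptor. This is therefore not a median of MMP inhibitors to set against that of the 3 TIMP genes (-0.11).

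Among 10 ADAM and ADAMTS proteases, several of which Timp3 inhibits, 0 were called higher, 1 was called lower at 2-fold and 2 at 1.5-fold, where 0.929% and 3.71% of all genes were called lower. Adamts5, an aggrecanase, had 4525 counts against 8704 and a ratio of 0.536 (0.517 to 0.556). Adam19 had 14 counts against 38 and a ratio of 0.389 (0.190 to 0.718) near the minimum. The highest were Adam8 at 1.15 (0.991 to 1.34) and Adam15 at 1.13 (1.08 to 1.19), and the list's median log2 ratio was -0.01.

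Matrix proteins that MMPs can cut had ratios mostly just above 1, in 15 of 16 genes above the minimum, with a median log2 ratio of 0.15. Over all genes above it, 6815 of 14001 had ratios above 1 and the median was -0.01. The type I collagen chains, the main fibre of cementum and bone, had ratios of 1.03 for both Col1a1 (188419 counts against 188837) and Col1a2. At 2-fold 1 gene was called, where 3.06% of all genes were called higher. This was the basement membrane collagen Col4a2, near the minimum, with 39 counts against 15 and a ratio of 2.63 (1.45 to 5.24). Col4a1, of the same list, had 3 counts in each library. Among genes above the minimum with a mean CPM below 5, the 95th percentile of the ratio was 2.55. After Col4a2, the highest ratio was that of Dcn at 1.75, which the 1.5-fold limit also called (7.31% of all genes higher). The lowest were Lamb1 at 0.939 (0.909 to 0.969) and Col1a2. Fibronectin (Fn1), given here as an abundant substrate outside the naming rule, had a ratio of 1.24 (1.22 to 1.25).

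Transcription factors known to act on MMP promoters had 1 of 16 genes called higher at 2-fold and 2 at 1.5-fold, against 3.06% and 7.31% of all genes. Both belong to the Fos family, and 0 were called lower. Fosb had 92 counts against 31 and a ratio of 3.03 (2.02 to 4.76), and Fos had 122 against 76 and a ratio of 1.65 (1.23 to 2.24). Both had few counts, at 3.79 and 1.24 CPM for Fosb and 5.02 and 3.03 CPM for Fos. Among genes above the minimum with a mean CPM below 5, the 95th percentile of the ratio was 2.55, above that of Fos. At a CPM minimum of 5, Fosb was no longer tested. Fosl1 and Fosl2, with more counts, had ratios of 1.33 (1.21 to 1.47) and 1.35 (1.27 to 1.43) and were not called. Of their partners, Jun had a ratio of 1.03 (0.923 to 1.16), Junb of 1.15 (1.06 to 1.25) and Jund of 1.11 (1.01 to 1.23). The lowest ratios were those of Runx2, at 0.787 (0.757 to 0.819), and Nfkb1, at 0.900 (0.856 to 0.947). The list's median log2 ratio was 0.14.

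**Figure D5:**
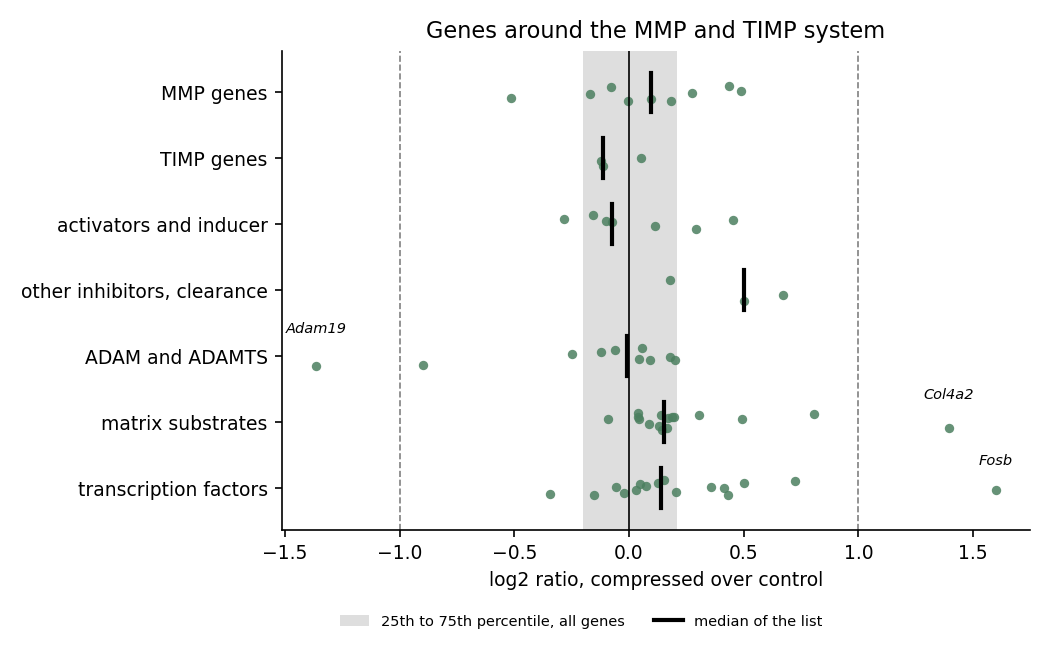
Log2 ratio of the compressed over the control library for each gene above 1 CPM in the MMP and TIMP families and 5 lists of related genes, with a black bar at each list's median and grey shading between the 25th and 75th percentiles of all genes. Dashed lines mark 2-fold. The 3 genes past them that were called are named (Adam19, Col4a2 and Fosb), and no MMP or TIMP gene above 1 CPM lies beyond 2-fold.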

How the data were processed

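RNA sequencing libraries of OCCM-30 cells, 1 under compressive force and 1 control, were compared. The deposited table gives whole-number counts per gene with no normalization. HISAT2, a spliced aligner, and the build GRCm38 appear in the submitters' processing notes; which tool and annotation made the counts, and how strand and multiply aligned reads were handled, is not stated in the sources used here. From the deposited counts, edgeR 4.0.16 in R 4.3.3 gave TMM library sizes for all 44792 rows, and CPM, ratios (prior count 0.5), Clopper-Pearson intervals and Poisson intervals were computed with scipy 1.17.1. No p-value was computed, since groups of 1 library leave no residual degrees of freedom for edgeR's quasi-likelihood fit. Where a library had 0 counts, the limit was 3 counts. No gene length was used, so levels were not compared between genes. Positions, overlapping genes and promoters came from RefSeq tables of GRCm38.p6, matched by symbol (7 of 10 members had a promoter); protein sequences were not used here.

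The members and lists were chosen with earlier results of these data known. Named were all 10 members, every other MMP or TIMP gene with a row, overlapping genes, and of each list the 2 highest and 2 lowest ratios above 1 CPM and any gene called at 2-fold; 1 list gene is not reported here and is left out of its list's counts and median. Furin, Fn1, Fosl1, Fosl2, Jun, Junb, Jund and Col1a1 were added after their values were seen. Alternatives were 4 other scalings (total counts, DESeq2 1.42.0 size factors, upper quartile, loess), no CPM minimum or one of 5, a prior count of 5, widened intervals, and sums without the most abundant gene.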

Additional observations from a re-analysis of the deposited data

How the results depend on the processing

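No member was called at 2-fold or 1.5-fold under any of the 4 other scalings, so those counts stayed at 0. They were also 0 with no CPM minimum, but of the members this setting adds only Mmp10. As the interval of Mmp10 included 1, that setting could not change the counts. A CPM minimum of 5 and the 2 widened intervals can only remove calls, so they could not change a count of 0. The median log2 ratio of the members ranged from 0.00 to 0.06 over its alternatives. Over the scalings, ratios ranged from 1.13 to 1.16 for Mmp2, from 0.650 to 0.704 for Mmp9, from 1.34 to 1.41 for Mmp13, from 0.989 to 1.02 for Mmp14, from 1.20 to 1.22 for Mmp19, from 0.917 to 0.945 for Timp1, from 0.910 to 0.929 for Timp2 and from 1.03 to 1.06 for Timp3. The number of members with an interval that excluded 1 was 4, 4 under total-count, DESeq2 and upper-quartile scaling, 5 under the loess fit, and 0 with intervals widened for an assumed coefficient of variation of 0.1 or 0.2. The member added under the loess fit was Timp3, at a ratio of 1.06. At a CPM minimum of 5, fewer genes were tested, and list genes called higher numbered 0 at 2-fold and 2 at 1.5-fold, in place of 2 and 5, and those called lower 0 and 1, in place of 1 and 2. Over all genes, 429 were called higher and 130 lower at 2-fold, 154 and 12 at a minimum of 5, and 774 and 369 with no minimum. The quotient of MMP over TIMP counts, 1.13 in the compressed over the control library, was 1.22 without Mmp14 and 1.08 without Timp2. No paired analysis was possible because each group has 1 library, and for the same reason no library could be left out. Depth limits Mmp9, Mmp10 and Mmp13, whose intervals span 1, and Mmp3, which had no counts.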
